A study of Cryptomeria japonica with 72 samples.

Results

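The target reCj30314 is a transcript of Japanese cedar (*Cryptomeria japonica*), a conifer, whose best match among Arabidopsis proteins is ATLP-1 (AT1G18250), a thaumatin-like protein. It was found on the arrays by the part of the systematic name that precedes the colon, and it is 1 of 19304 targets. The target was chosen by the measured change of its level on these arrays, which between excision and 6 weeks after insertion was larger at the base of cuttings than in the middle. The arrays of base and middle at these outer times are therefore described here without a test, and tests compare only arrays that did not enter the choice. In tests with base or middle arrays, the outer arrays still entered the filter on targets and the shared estimate of the spread. The match to Arabidopsis gives the name by similarity, and the activity of the protein in cedar is not known from these data.

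Thaumatin-like proteins take their name from thaumatin, a sweet-tasting protein of a West African fruit, and form a class of the pathogenesis-related proteins of plants. Many are secreted or stored in vacuoles, and their synthesis is known to follow infection, wounding, drought or salt in many species. Several of them, such as osmotin of tobacco, inhibit the growth of fungi, and some bind the beta-1,3-glucans of fungal walls. A cutting is a wounded shoot that has to form adventitious roots at its base, that is, roots that arise from stem tissue and not from the root of a seedling.

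Cuttings of the clone Tsukuba 1 came from field-grown trees aged 18 years and stood in soil in an irrigated greenhouse whose climate was not controlled. Base (the part in the soil), middle (the stem above the soil) and needles (shoots with their needles) were sampled from 3 cuttings at each of 8 times. These were 0 h post excision (0 hpe), 0 and 3 h post insertion (0 and 3 hpi), 1 and 3 days (1 and 3 dpi) and 1, 3 and 6 weeks (1, 3 and 6 wpi), and bases at 6 wpi carried roots. All samples were of 1 clone and had been cut from the tree, and no shoot left on a tree was sampled at the later times, so the time since cutting and the time of year cannot be told apart. RNA of each of the 72 samples was labelled with Cy3 and hybridized to 1 array. A level is given below as the log2 of the mean signal of the 3 spots of the target minus the 75th percentile of its array, so that 0 equals this percentile and 1 unit is a factor of 2.

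Between 66.0% and 86.9% of the spots of a base array were well above background, and these ranges were 76.4% to 85.6% in the middle and 73.1% to 83.9% in needles. All 216 spots of reCj30314 were well above background, and none was saturated or flagged as non-uniform. With 3 arrays per group, their number sets the precision. Base and needle arrays were mixed on 6 of the 9 slides, and the middle had the other 3 to itself, so for base against middle the slide and the part cannot be told apart. The mean level of 6 green tissue targets (photosystem subunits, a light-harvesting protein and a ferredoxin) was between -2.21 and 4.93 on base arrays, 2.36 and 5.38 on middle arrays and 4.47 and 6.01 on needle arrays. Green tissue transcripts were thus present in every part, the base included, where their mean was between 4.27 and 4.93 at 0 hpe. Whole pieces of tissue were extracted, so a change in the share of a cell type and a change in the RNA of each cell cannot be told apart.

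At the base, reCj30314 was low up to 0 hpi, high from 1 dpi on and highest at 3 dpi and 1 wpi. The mean level was -2.16 ± 1.14 at 0 hpe, -2.61 ± 1.34 at 0 hpi and -0.08 ± 3.37 at 3 hpi (SD, n = 3 each). It was 4.71 ± 1.63 at 1 dpi, 6.05 ± 0.20 at 3 dpi and 6.06 ± 0.54 at 1 wpi, and then 4.10 ± 0.59 at 3 wpi and 3.72 ± 1.76 at 6 wpi (SD, n = 3 each). These means spanned a wide range: the lowest and the highest lay 8.67 log2 units apart, a factor of 406. In the middle the means lay within 2.85 units, a factor of 7.23, and in needles within 2.37 units, a factor of 5.16.

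**Figure D1:**
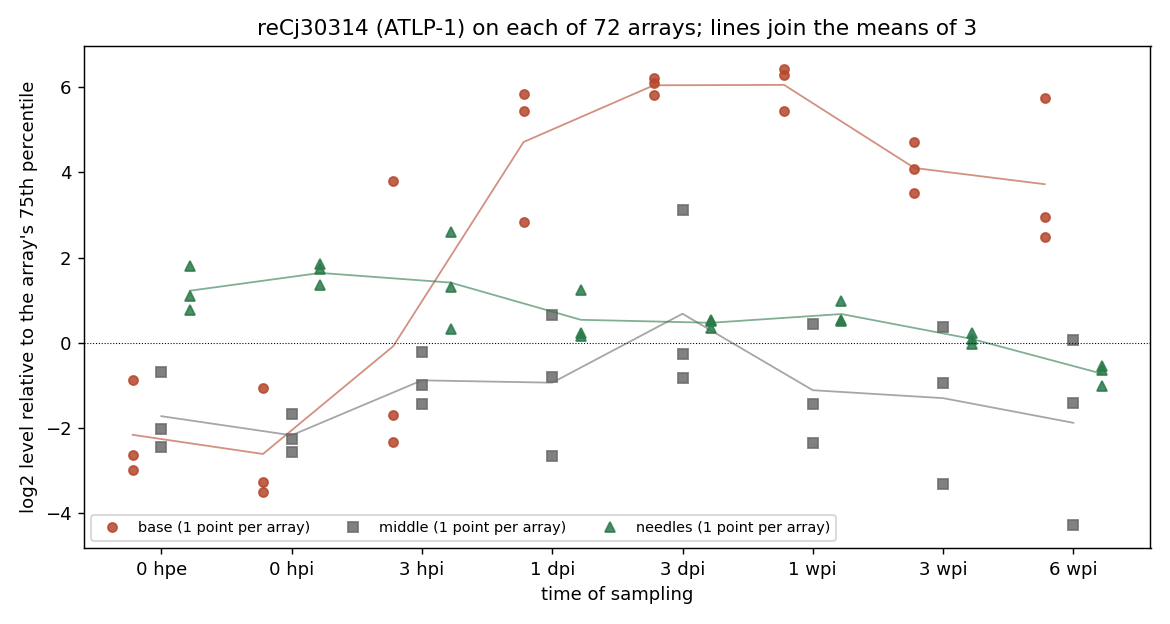
Level of reCj30314 (log2, 0 = 75th percentile of its array) on each of the 72 arrays against the time of sampling, with base, middle and needles side by side and lines joining the means of 3 arrays. From 1 dpi on all base arrays lie above all needle arrays of the same time, while at 0 hpe and 0 hpi they lie below them.

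The single arrays of the base show where the change fell. Other cuttings were taken at each time, so a replicate number follows no cutting over time, and the labels do not say whether same-numbered parts came from 1 cutting. At 0 hpi the levels were -3.50, -1.07 and -3.26 for replicates 1, 2 and 3. At 3 hpi they were -2.33, 3.79 and -1.70, and at 1 dpi 2.85, 5.45 and 5.84. At 3 hpi the base of 1 cutting, replicate 2, was thus already high, with a mean spot signal of 6604 against 157 and 138 on the other 2 arrays, while all 3 bases were high at 1 dpi. The levels at 3 dpi were 6.10, 5.83 and 6.22, the closest agreement of any base group, and those at 1 wpi were 5.44, 6.43 and 6.29. At 3 wpi the levels were 4.07, 3.53 and 4.71, so all 3 arrays lay below those of 1 wpi. At 6 wpi, when the bases were rooted, they were 2.95, 5.74 and 2.49, with 1 array, replicate 2, above the other 2.

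Consecutive times at the base were compared with limma, in 1 fit over the 48 base and middle arrays, with Benjamini-Hochberg adjustment over 9592 targets. A target was called at an adjusted p below 0.05 and a difference of at least 1. The step from 3 hpi to 1 dpi was called, with a log2 difference of 4.79 (standard error 1.24, limma adjusted p = 0.00279), although the arrays of both times overlapped through replicate 2 at 3 hpi. In this step 16.3% of all targets were called, and 5 targets had a larger difference than reCj30314. Fitted on the arrays of these 2 groups alone, the step of 4.79 lost its call (adjusted p = 0.0931). The step from 0 hpi to 3 hpi was not called at 2.53 (adjusted p = 0.113, 17.4% of targets called), and with the slide as a block it was 0.89 (adjusted p = 0.825). It rested on 1 array: without base replicate 2 of 3 hpi it was 0.59, and without replicate 1 of 3 hpi it was 3.66 (adjusted p = 0.0314).

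Later steps at the base were not called. From 1 dpi to 3 dpi the difference was 1.33 (adjusted p = 0.651, 0.615% of targets called), between 0.40 and 1.90 when any 1 array was left out, and from 3 dpi to 1 wpi it was 0.01 (adjusted p = 0.998, 0.0104% called). From 1 wpi to 3 wpi it was -1.95 (adjusted p = 0.361), a lower mean level by a factor of 3.86. The arrays of these 2 times were apart, and 1.56% of targets were called. With the slide as a block this difference was -3.98 (standard error 1.60, adjusted p = 0.776). The standard error of each of these steps was 1.24, so that a change by a factor of 2 was not detectable with this spread.

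In the middle, reCj30314 stayed low at most times and no step was called. The levels were -1.68, -2.26 and -2.57 at 0 hpi, -0.99, -1.45 and -0.21 at 3 hpi and -2.66, 0.65 and -0.81 at 1 dpi. At 3 dpi they were -0.82, 3.12 and -0.25, with a mean of 0.68 ± 2.13 (SD, n = 3), the highest of the middle. Here too 1 cutting, replicate 2, was high, with a mean spot signal of 8845 against 597 and 463 on the other 2 arrays. The levels were 0.43, -2.35 and -1.43 at 1 wpi and 0.37, -3.32 and -0.95 at 3 wpi. The steps were 1.29 to 3 hpi, -0.05 to 1 dpi, 1.62 to 3 dpi, -1.80 to 1 wpi and -0.19 to 3 wpi, with a standard error of 1.24 and limma adjusted p between 0.536 and 0.982. Of all targets, 8.67%, 5.45%, 0.125%, 0.125% and 0.0313% were called in these steps. When any 1 array was left out, the step to 3 dpi lay between 0.40 and 2.41 and that to 1 wpi between -2.57 and -0.58. The arrays of 3 hpi were all above those of 0 hpi, and those of the other steps overlapped.

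Base and middle were next compared at each time, the contrast between the part that roots and the stem above it. The base was also the cut end and stood in the soil, so rooting, cutting and soil cannot be told apart in this contrast. At 0 hpi, 1 of 3 base arrays was above all middle arrays and the other 2 were below them, and the difference was -0.44 (standard error 1.24, limma adjusted p = 1.00, 0.104% of targets called). Without base replicate 1 of 0 hpi the difference was 0.01. At 3 hpi it was 0.80 (adjusted p = 0.726, 4.95% of targets called), and without base replicate 2 of 3 hpi it was -1.14, in the other direction. At these 2 times the test found no difference between both parts, with a standard error larger than either difference.

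From 1 dpi to 3 wpi reCj30314 was called higher at the base than in the middle at every time, and the arrays of both parts did not overlap. At 1 dpi the base was higher by 5.65, a factor of 50.2 (standard error 1.24, limma adjusted p = 0.00469), where 5.83% of all targets were called. At 3 dpi it was higher by 5.36, a factor of 41.2 (adjusted p = 0.00215, 10.9% of targets called). The lowest base level at 3 dpi, 5.83, still exceeded the 3.12 of middle replicate 2. At 1 wpi the base was higher by 7.17, a factor of 144 (adjusted p = 7.19e-05, 18.2% of targets called), and at 3 wpi by 5.40, a factor of 42.3 (adjusted p = 0.000723, 21.1% of targets called). By size of the difference between base and middle, reCj30314 was the target with the largest value of 9592 at 1 dpi and 1 wpi. It was number 2 at 3 dpi and number 5 at 3 wpi. Targets that were not well above background on every base and middle array are not among the 9592 and have no rank here.

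The calls at these 4 times held when any 1 array was left out, with differences between 4.39 and 7.94 and adjusted p of at most 0.0473. The median difference of all targets was 0.06 at 1 dpi, 0.11 at 3 dpi, 0.12 at 1 wpi and 0.16 at 3 wpi, small beside these values. The change from 0 hpi to 3 wpi at the base exceeded that in the middle by 5.84 (standard error 1.75, limma adjusted p = 0.0182), the largest such difference of 9592 targets, of which 13% were called. Without middle replicate 2 of 3 wpi, the lowest array of that group at -3.32, this difference was 4.83 and lost its call (adjusted p = 0.0678).

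**Figure D2:**
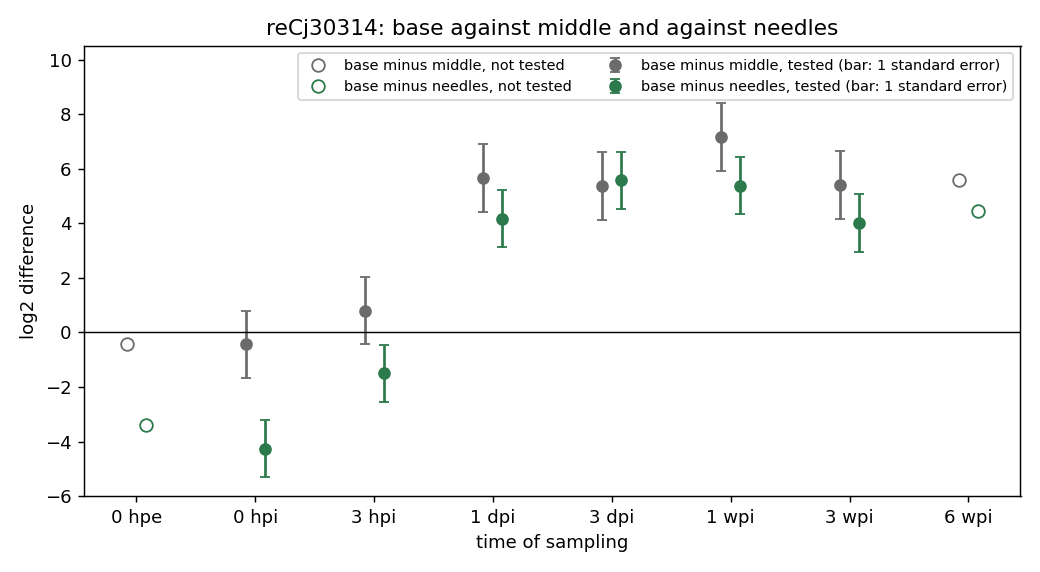
Log2 difference of reCj30314 between base and middle and between base and needles against the time of sampling, with bars of 1 standard error from limma for tested times (filled) and no bars for the outer times, whose arrays chose the target (open). Base minus middle lies near 0 at 0 and 3 hpi and between 5.36 and 7.17 from 1 dpi to 3 wpi, while base minus needles runs between -4.25 at 0 hpi and 5.58 at 3 dpi.

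The green tissue transcripts differed in the other direction. Of the 6 targets listed, 5 were tested, and all 5 were called lower at the base than in the middle at 3 dpi, 1 wpi and 3 wpi, where 4.9%, 6.73% and 9.34% of all targets were called lower. The 6 were listed from the study's tables of targets that vary on these arrays, so these counts are no independent evidence. At 3 wpi the mean level over the 6 targets was between -1.88 and -0.12 on base arrays and between 4.32 and 4.82 on middle arrays. These transcripts were thus lower at the base at times when reCj30314 was higher there, and their part in the result was not tested. At 3 hpi 4 of the 5 were called lower at the base, beside 3.14% of all targets, with a median difference of -1.90. The difference of reCj30314 at 3 hpi was 0.80, not called, with a standard error of 1.24. At 1 dpi, when reCj30314 differed by 5.65, 2 of the 5 were called lower, beside 2.68% of all targets. The mean level was then between 1.28 and 2.08 on base arrays and between 2.63 and 3.21 on middle arrays.

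The arrays that chose the target are given as a description. At 0 hpe the base had levels of -2.98, -0.86 and -2.63, against -2.45, -0.68 and -2.03 for the middle, so that replicate 2 was the highest in either part and the groups overlapped. The difference of the means was -0.44. At 6 wpi the base had 2.95, 5.74 and 2.49, against -1.42, 0.07 and -4.29 for the middle, with a difference of 5.60. The groups were apart at 6 wpi and replicate 2 was the highest in either. The change between these times was 5.88 for the base and -0.16 for the middle.

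Needles, which took no part in the choice, began above both stem parts and were lower at 6 wpi than at 0 hpe. The levels were 1.11, 1.80 and 0.76 at 0 hpe, 1.84, 1.35 and 1.73 at 0 hpi and 2.60, 1.31 and 0.33 at 3 hpi. They were 0.16, 1.24 and 0.23 at 1 dpi, 0.36, 0.51 and 0.55 at 3 dpi and 0.52, 0.97 and 0.53 at 1 wpi. All 3 needle arrays then lay lower at 3 wpi, with -0.03, 0.22 and 0.08, and lower still at 6 wpi, with -0.53, -1.01 and -0.63. Against 0 hpe, the level at 6 wpi was lower by a factor of 3.86, a log2 difference of -1.95 (standard error 0.40, limma adjusted p = 0.000992 over 12523 targets, arrays apart). At 3 wpi it was lower by a factor of 2.19, a log2 difference of -1.13 (adjusted p = 0.0382, arrays apart). In these comparisons 13% and 10% of all targets were called.

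The needle call at 3 wpi was the less firm of the pair. It was lost when any of 5 single arrays was left out (adjusted p between 0.0681 and 0.143), and under 4 other settings. The call at 6 wpi held without any 1 array. With the slide as a block, neither call held: the difference at 3 wpi was -0.61 (adjusted p = 0.792) and that at 6 wpi was -1.42 (adjusted p = 0.377), with a standard error of 0.86 in place of 0.40. The needle arrays of 0 hpe shared no slide with those of 3 and 6 wpi. No slide thus held both times of either comparison, and slide and time cannot be told apart in them. The other times in needles were not called against 0 hpe, with differences between -0.75 at 3 dpi and 0.42 at 0 hpi and adjusted p between 0.280 and 0.763. Of all targets, 9.76%, 9.19%, 3.77%, 1.45% and 1.47% were called at 0 hpi, 3 hpi, 1 dpi, 3 dpi and 1 wpi. The mean of the 6 green tissue targets in needles was between 5.42 and 5.54 at 6 wpi and between 5.05 and 5.14 at 0 hpe. Their part in the needle levels of reCj30314 was not tested.

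Base and needles of the same replicate number lay on 1 slide at every time, so their difference could be read within slides. At 0 hpi the base minus needles differences of the 3 pairs were -5.34, -2.41 and -4.997, a fitted log2 difference of -4.25 and a factor of 19.0 (standard error 1.05, limma adjusted p = 0.000783 over 9175 targets, 22.8% called). At 3 hpi the pairs were split, with differences of -4.93, 2.48 and -2.03, and the fitted difference of -1.49 was not called (adjusted p = 0.223, 27.9% of targets called). Without base replicate 2 of 3 hpi it was -3.43 and called (adjusted p = 0.00449). From 1 dpi on the order of the parts was turned round on every pair.

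The base was above the needles by 2.69, 4.22 and 5.62 at 1 dpi, by 5.74, 5.32 and 5.67 at 3 dpi, by 4.92, 5.46 and 5.76 at 1 wpi and by 4.11, 3.30 and 4.63 at 3 wpi. The fitted differences were 4.17, 5.58, 5.38 and 4.01, factors of 18.1, 47.7, 41.6 and 16.1 (standard error 1.05, limma adjusted p = 0.000687, 1.27e-05, 2.53e-05 and 0.00103). At these times 29.8%, 30.8%, 28.8% and 29.2% of targets were called, and each call held with the slide as a block and without any 1 array. The change from 0 hpi to 3 wpi at the base exceeded that in needles by 8.26 (standard error 1.49, adjusted p = 1.89e-05), a comparison added after the values had been seen. By this measure reCj30314 was number 2 of 9175 targets, of which 27.7% were called.

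At the outer times, described only, the base minus needles pairs were -4.09, -2.66 and -3.40 at 0 hpe and 3.48, 6.75 and 3.12 at 6 wpi. Middle and needles were set side by side without a test. The middle arrays were all below the needle arrays at 0 hpe, 0 hpi, 3 hpi and 1 wpi, and overlapped them at 1 dpi, 3 dpi, 3 wpi and 6 wpi. The difference of the means was -3.81 at 0 hpi and -1.15 at 6 wpi.

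Ordered by mean level, the 24 groups fell into 3 ranges. The 5 base groups from 1 dpi on were at the top, all needle groups lay between means of -0.73 and 1.64, and the base groups of 0 hpe and 0 hpi shared the bottom with 7 of the 8 middle groups. Of the 23 pairs of neighbours in this order, 21 overlapped in their arrays and 2 were apart. Base at 6 wpi lay above needles at 0 hpi, by 2.08, and needles at 3 dpi above needles at 3 wpi, by 0.38. Base at 1 wpi and 3 dpi differed by 0.01, and base at 0 hpe and the middle at 0 hpi also by 0.01, so no order is to be read between them. Base at 3 hpi and the middle at 3 dpi, where 1 array each was high, stood among needle groups in the order, with means that fell in a gap between their arrays.

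The spread between cuttings of the same group was large for this target beside the median of all targets. Its pooled SD over the 8 groups was 1.62 for bases, 1.55 for the middle and 0.52 for needles. The median of the targets tested was 0.32 for bases, 0.26 for the middle and 0.24 for needles. At the base 16 of 9592 targets (0.167%) had a larger pooled SD, in the middle 34 of 9592 (0.354%) and in needles 1184 of 12523 (9.45%). The 3 spots of an array differed far less, with a median SD of 0.06 and at most 0.23, so the spread lay between samples and not between spots. A wide spread was not particular to reCj30314 among the thaumatin-like targets described below. The largest SD of a single group was 3.37 in reCj30314, 3.55 in reCj15101, 3.27 in reCj32221 and 2.52 in reCj29438. It was 1.38 in reCj31119, 0.73 in reCj21629 and 0.57 in reCj08623.

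**Figure D3:**
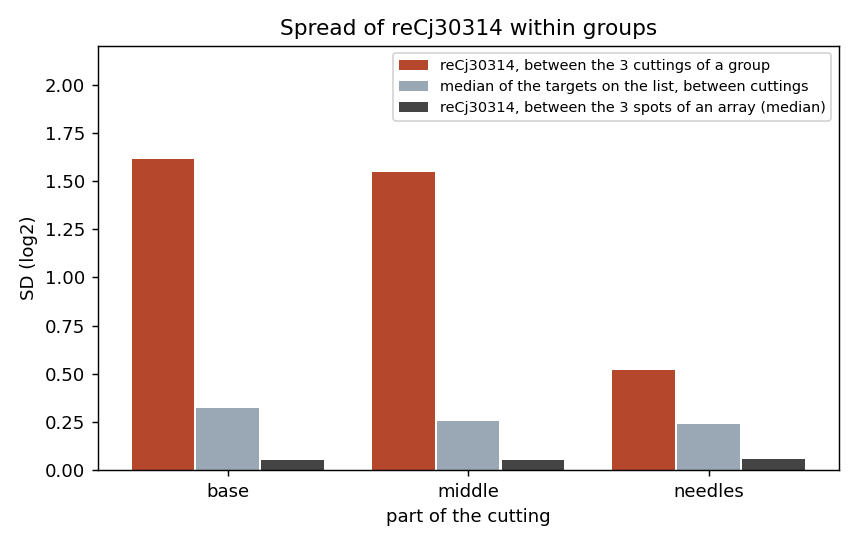
SD on the log2 scale for base, middle and needles, as the pooled SD of reCj30314 between the 3 cuttings of a group, the median of this SD over the targets tested, and the median SD between the 3 spots of reCj30314 on an array. The bar of reCj30314 between cuttings is 1.62 for bases, 1.55 for the middle and 0.52 for needles, against medians of 0.32, 0.26 and 0.24 over targets.

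Some single arrays stood apart in other targets as well. On base replicate 2 of 3 hpi, reCj30314 was 5.81 above the mean of the other 2 arrays, and 1 of 9592 targets had a larger value. On this array 21.3% of targets differed by at least 1 from that mean. On the other 47 base and middle arrays this share lay between 0.365% and 18.3%. On base replicate 2 of 0 hpi, by contrast, reCj30314 was 2.31 above the other 2, with 6 targets higher, while 0.907% of targets differed by at least 1. Middle replicate 2 of 3 dpi was of the same kind: reCj30314 was 3.66 above the other 2 arrays, the largest value of the 9592 targets, while 1.83% of targets differed by at least 1. Middle replicate 2 of 6 wpi, with 18.3% of targets differing by at least 1, had a root mean square distance of 0.93 to the others of its group. Its distance to the middle at 3 dpi, the nearest of the middle groups, was 0.68, and its distance to base groups was not computed. On base replicate 2 of 6 wpi reCj30314 was 3.02 above the other 2 arrays, and 12.4% of targets differed by at least 1. This array lay at 0.70 from the others of its group and at 0.51 from base at 1 wpi. Base replicate 3 of 6 wpi was nearest to base at 3 wpi (0.39, against 0.54 to its own group), and replicate 1 to its own group (0.42).

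The 0 hpi arrays also differed in slide, since base replicate 2 lay on another slide than replicates 1 and 3. Needles of the same numbers lay on the same slides, and there reCj30314 was 1.35 on the slide of replicate 2 and 1.84 and 1.73 on the other. The part of the slide in the base values was not tested.

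The lists used here held 6 further targets whose best Arabidopsis match is a thaumatin-like protein. The lists were taken from the readable part of the study's tables of targets that vary on these arrays. Members of the family outside this part may be missing, and the choice of members is no independent evidence of change. Between base and middle 4 of them could be tested. The osmotin-like reCj29438 had a spot flagged as non-uniform on 1 array, and reCj15101, whose match is TLP-3 (AT1G75030), was not well above background on 4 of 72 arrays. Called higher at the base were 1 of the 4 at 1 dpi and 3 dpi and 2 at 1 wpi, where 3.15%, 6.02% and 11.5% of all targets were called higher. At 3 wpi none of the 4 was called higher, beside 11.8% of all targets. Called lower was 1 of the 4 at 3 hpi and 3 wpi, where 3.14% and 9.34% of all targets were. The median difference of the 4 was 0.47 at 1 wpi and 0.31 at 3 wpi, beside 0.12 and 0.16 for all targets tested. In needles 5 of the 6 were tested against 0 hpe, of which 2 were called lower at 3 wpi and 1 at 6 wpi and none higher. Of all targets, 6.04% and 7.67% were called lower and 3.96% and 5.29% higher at these times.

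The target reCj21629 (match AT4G38660) came nearest in its calls between base and middle, with smaller differences and another course. Its mean at the base was 1.99 at 0 hpe and 2.71 at 3 dpi. In the middle its mean was 1.73 at 0 hpe and 0.65 at 3 dpi, so a lower middle made part of the gap. At 3 dpi its base levels of 2.56, 2.91 and 2.67 were all above the middle levels of 0.91, 0.83 and 0.21, with a difference of 2.06 (standard error 0.30, limma adjusted p = 1.91e-05). It was also higher at the base at 1 dpi, by 1.22 (adjusted p = 0.00842), and at 1 wpi, by 1.55 (adjusted p = 0.000206). At 3 wpi its difference of 0.89 was under the size needed for a call. Its course differed from that of reCj30314 at 3 hpi as well, where it had fallen at the base by 1.89 from 0 hpi (adjusted p = 8.19e-06).

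Osmotin is a thaumatin-like protein named for its build-up in cells under osmotic stress. The osmotin-like reCj32221 (match OSM34, AT4G11650) had base levels of 0.73, 2.73 and 1.41 at 1 wpi, against middle levels of -0.59, -2.30 and -1.03. The arrays were apart and the difference of 2.93 was called (standard error 1.13, adjusted p = 0.0368). Its differences of 1.88 at 1 dpi, 2.52 at 3 dpi and 2.25 at 3 wpi were not called. The other osmotin-like target, reCj29438, was not tested between base and middle and had a mean of 4.07 ± 0.40 in bases at 1 dpi, against 2.66 ± 0.72 for the middle (SD, n = 3 each). In needles it fell by 2.14 between 0 hpe and 3 wpi (adjusted p = 0.0084).

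The family did not follow 1 pattern. The target reCj08623 (match AT4G38660, as for reCj21629) was lower at the base than in the middle at 3 hpi, by a difference of -1.20 (adjusted p = 0.00184), and at 3 wpi, with -1.26 (adjusted p = 0.000123). The target reCj31119 (match AT1G77700) was not called between base and middle, and it was higher at the base than in needles at all 6 times tested, by 1.80 to 2.69. Of the 6, reCj15101 had its highest means at 1 wpi in the base and the middle, 4.42 ± 0.19 and 4.05 ± 0.67, against -4.85 ± 0.46 in needles (SD, n = 3 each).

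**Figure D4:**
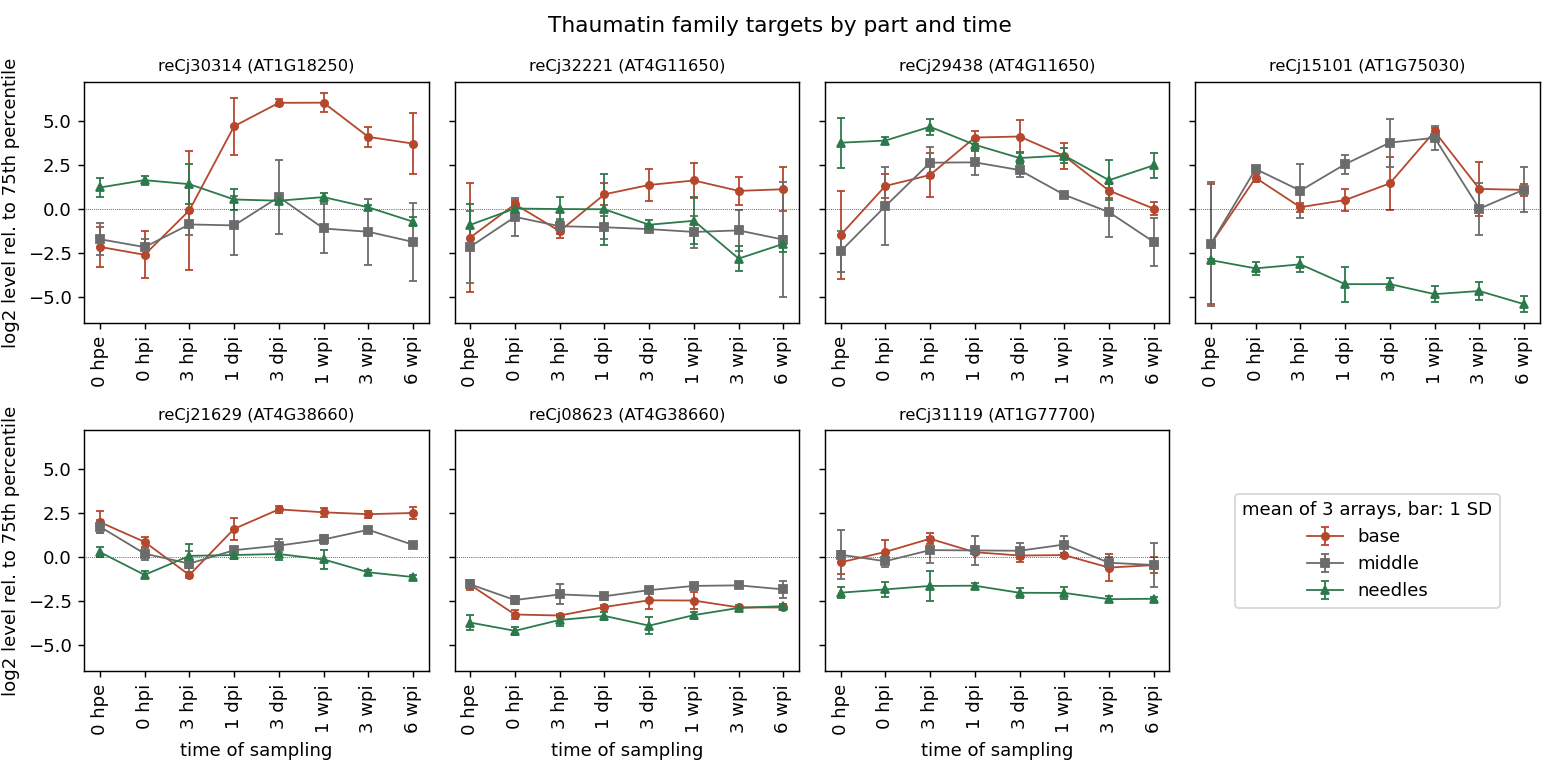
Mean level (log2, 0 = 75th percentile of the array, bars of 1 SD, n = 3) of the 7 listed thaumatin family targets against the time of sampling, each panel with base, middle and needles. In reCj30314 the base leaves the other parts from 1 dpi on. In reCj15101, which was not well above background on some arrays, the means of base and middle both lie above that of the needles at every time. At 0 hpe the arrays of reCj15101 in base and middle overlap those of the needles.

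Over the 24 group means, the courses of other targets were set beside that of reCj30314 by Pearson r, as a description with no test. Of 9174 targets, 25 had an r above 0.9, and the median was 0.11. The means share arrays, scaling and the large difference of the late base from all else, so a high r says little more than that a target was high there too. Of the thaumatin family, reCj32221 had an r of 0.77, reCj21629 of 0.47, reCj31119 of -0.02 and reCj08623 of -0.29.

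The highest r, 0.95, was that of reCj20813, whose match is G6PD2, a glucose-6-phosphate dehydrogenase, the enzyme at the entry of the oxidative pentose phosphate pathway. Its level at the base was -1.13 ± 0.14 at 0 hpi, 1.30 ± 0.08 at 3 dpi and 0.97 ± 0.36 at 3 wpi (SD, n = 3 each). In the middle it was -1.17 ± 0.06 at 0 hpi and -1.28 ± 0.18 at 3 wpi. Its range was thus smaller than that of reCj30314 and its cuttings agreed more closely. Next came reCj29055, reCj23505 and reCj26114, each with an r of 0.94, reCj20391 with 0.93 and reCj21183 with 0.92, none of which had a name in the tables used here. At the base at 3 hpi, where replicate 2 of reCj30314 stood 5.81 above the others, reCj21183 was 0.87 in replicate 2 and -0.60 and -0.23 in replicates 1 and 3, while reCj26114 was -0.96 in replicate 2 and -0.93 and -0.94 in the others.

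The most opposite courses were those of reCj25287, with an r of -0.94 and a match to a calmodulin-like protein (AT1G73440), and of reCj14957, with -0.91 and no name in the tables used. Calmodulin-like proteins bind calcium. For reCj25287 the base level was 0.77 ± 0.08 at 0 hpi, against -1.32 ± 0.34 at 1 wpi and -0.42 ± 0.10 at 3 wpi (SD, n = 3 each). In the middle it was 0.79 ± 0.08 at 0 hpi and 0.96 ± 0.05 at 3 wpi.

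**Figure D5:**
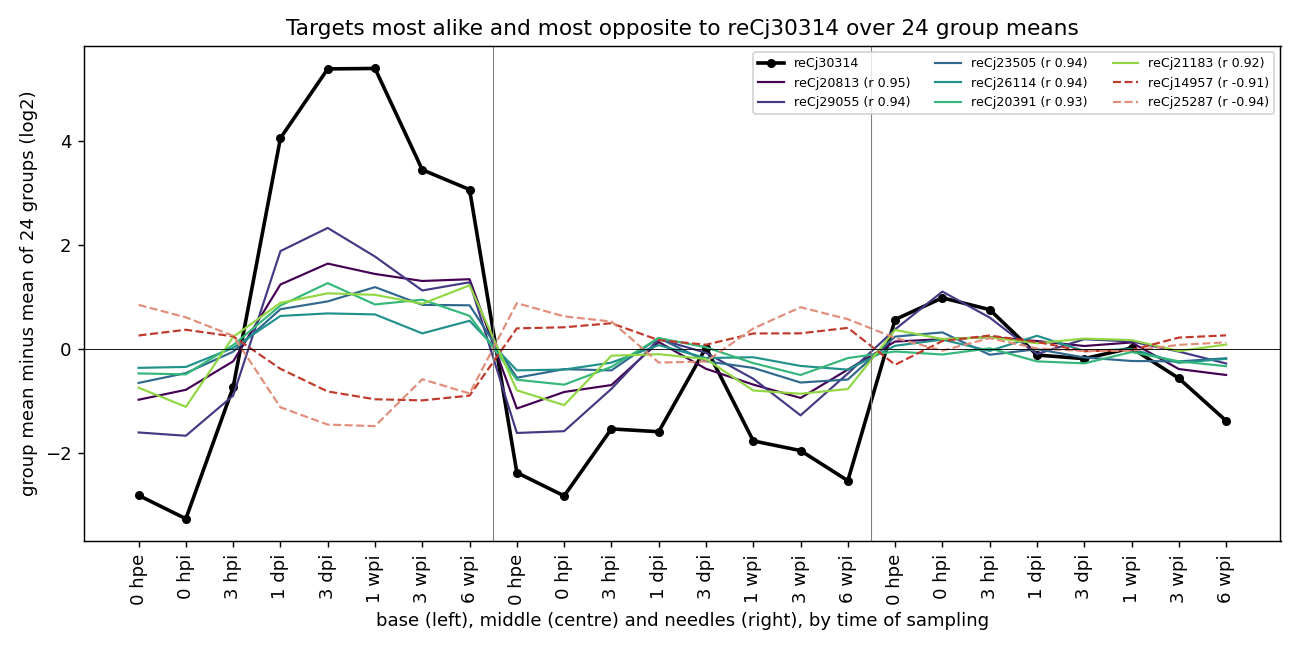
Group means of reCj30314, of the 6 targets most alike (solid) and of the 2 most opposite (dashed), each minus its own mean over the 24 groups on the log2 scale, by part and time of sampling. The 6 have their highest means at the base from 1 dpi on, as reCj30314 does, over a smaller range, with r between 0.92 and 0.95.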

How the data were processed

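The authors deposited Agilent Feature Extraction (version 11.5) files with the signal intensity of each spot, detrended and background-subtracted but not normalized between arrays, and a table of log2 values per probe, scaled to the 75th percentile of the array and centred per probe. The centring was inferred from the values. No sequence is printed, since the sources used here hold none for the probe of reCj30314.

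For each target, the processed intensity was averaged over its spots, leaving out those flagged as non-uniform, and its log2 was set against the 75th percentile of all 19304 targets on that array. Targets entered a test if, on each array of the dataset, no spot was flagged as non-uniform, all spots were well above background and the mean signal exceeded 10. They numbered 9175 (all parts), 9592 (base and middle) and 12523 (needles). Tests used limma 3.58.1 (lmFit and eBayes, without a block) under R 4.3.3, with Benjamini-Hochberg adjustment over the targets tested. Calls were made at adjusted p below 0.05 where the difference was 1 log2 unit or more in either direction. The code was tested on simulated data. Files were read in Python 3.11.15 with NumPy 2.4.6 and pandas 2.3.3, and matplotlib 3.10.9 drew the figures.

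The 75th percentile of the signal ranged between 162 and 1133 for bases, 299 and 1764 for the middle and 455 and 1418 for needles. The labels number the arrays of each group from 1 to 3. Deviations from the group means of same-numbered base and middle arrays had an r above 0.1 for all 3 pairs at 0 hpe, 3 dpi and 6 wpi only (lowest r 0.75, 0.21 and 0.17), and those of base and needles at no time. The labels number the samples, and p-values measure the spread between these samples.

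The target and the gene lists were chosen with earlier results of these data known. Named were reCj30314, every thaumatin family target on the list, and the 6 highest and 2 lowest in Pearson r with reCj30314 over group means. Named as well were, of the other pathogenesis-related lists, the 4 called targets with the largest difference between base and middle at 3 wpi. Alternatives were normexp background correction with an offset of 50, run on the median spot signal because the files used hold no mean signal, quantile normalization, the array median, the median of spots, no filter, the flag for positive and significant spots, fewer arrays in the fit, the deposited log2 table, blocks for replicate number and slide, and leaving out each array.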

Additional observations from a re-analysis of the deposited data

Results flagged for a closer look

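Of the differences between groups in the same contrast, 2 were tested on the difference itself and called, with limits given below. The change of reCj30314 from 0 hpi to 3 wpi was larger at the base than in the middle by 5.84 on the log2 scale (standard error 1.75, limma adjusted p = 0.0182), with all 3 base arrays at 3 wpi above all middle arrays. It was larger at the base than in needles by 8.26 (standard error 1.49, limma adjusted p = 1.89e-05), and all 3 base arrays lay below the needle arrays at 0 hpi and above them at 3 wpi. In these 2 tests 13% and 27.7% of all targets were called. Without middle replicate 2 of 3 wpi the difference of 5.84 was 4.83 and lost its call (limma adjusted p = 0.0678). The middle lay on slides of its own, so for this difference slide and part cannot be told apart. The comparison with needles was added after the values had been seen. The gap of a single array to the others was not tested, since groups held 3 arrays.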

How the results depend on the processing

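For 31 tested results, 508 values were computed under alternatives. Of these 478 kept their direction and side of the threshold, 12 lost a call, 2 gained one and 16 changed sign. No value that changed sign was called under the alternative. With the replicate block no call changed, and the difference between base and middle at 1 dpi was 5.65 (adjusted p = 0.00173) and at 3 dpi 5.36 (adjusted p = 0.000958). The median of spots, the other flag and the deposited table changed no call or direction in the 31 results. The fit without the arrays of 0 hpe and 6 wpi was made for 17 base and middle results and changed no call or direction there. The slide as a random block was fitted for 7 base and middle results and also changed none. Base and middle shared no slide, so this block could not take a slide effect out of their difference. Its fitted correlation within slides was 0.00456.

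The step from 3 dpi to 1 wpi at the base was -0.068 with normexp, -0.21 with quantile normalization, -0.082 with the array median and -0.61 with the slide as a block. That block also moved the base step from 0 hpi to 3 hpi to 0.89 and that from 1 wpi to 3 wpi to -3.98, neither called. The step from 3 hpi to 1 dpi in the middle was 0.023 with normexp. At the base this step was 4.79 with only the arrays compared (adjusted p = 0.0931), where fewer arrays give the spread. Needles at 3 wpi minus 0 hpe were -1.01 with normexp, -1.06 with the array median, -1.13 without a filter and -0.61 with the slide as a block, and at 6 wpi -1.42 with that block. The cause was not tested.

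Leaving out 1 array each, base minus middle ranged between -1.21 and 0.0066 at 0 hpi and between -1.14 and 1.93 at 3 hpi, and base minus needles at 3 hpi between -3.43 and -0.37. At the base, the step to 3 hpi ranged between 0.59 and 3.66, that to 3 dpi between 0.40 and 1.90 and that to 1 wpi between -0.18 and 0.32. In the middle, the step to 1 dpi ranged between -0.85 and 0.80, that to 3 dpi between 0.40 and 2.41, that to 1 wpi between -2.57 and -0.58 and that to 3 wpi between -1.02 and 0.83. The base change less the middle change ranged between 4.83 and 6.68. Needles minus 0 hpe ranged between -0.40 and 0.73 at 3 hpi and between -1.36 and -0.84 at 3 wpi. Of the 6 most alike targets, 3 stayed among the 6 with Pearson r over the 72 arrays and 2 with Spearman rho over group means.

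Limits are the 3 arrays per group, the middle on slides of its own, a single probe for the target, whose binding to related transcripts was not tested, and gene names by similarity to Arabidopsis.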

Other observations

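Other pathogenesis-related proteins act beside thaumatin-like proteins in plants, such as chitinases, which cut the chitin of fungal walls, and beta-1,3-glucanases. Of 46 targets listed (chitinases, glucanases and barwin proteins, PR-1 and related proteins, MLP-like proteins, lipid transfer proteins, germin-like proteins and Kunitz inhibitors), 27 could be tested between base and middle. At 1 dpi 2 of the 27 were called higher and 1 lower at the base, and at 3 dpi 3 higher and 0 lower. Of all targets, 3.15% were called higher and 2.68% lower at 1 dpi, and 6.02% and 4.9% at 3 dpi. The median difference of the 27 at 1 dpi was -0.28, beside 0.06 for all targets. At 1 wpi 10 of the 27 were called higher and 2 lower at the base, and at 3 wpi 11 higher and 2 lower. Of all targets, 11.5% were called higher and 6.73% lower at 1 wpi, and 11.8% and 9.34% at 3 wpi. The median difference of the 27 at 3 wpi was 0.57, beside 0.16 for all targets. The families differed at 3 wpi. Of 7 MLP-like targets tested, all listed with the same Arabidopsis match, 5 were called higher and 0 lower. Of 6 chitinases 1 was called higher and 1 lower, and of 5 glucanases and barwin proteins 2 higher and 1 lower. Of 5 lipid transfer proteins 2 were called higher, and of 4 germin-like proteins and Kunitz inhibitors 1, with 0 lower in both. These lists were drawn from the same tables of varying targets, so the counts are no independent evidence.

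The 4 with the largest difference at 3 wpi were all higher at the base. The glycosyl hydrolase reCj08658 had base levels of 2.86, 2.08 and 2.33, against middle levels of -0.64, -2.25 and -2.41, and differed by 4.19 (standard error 0.62, limma adjusted p = 4.94e-06). The MLP-like targets reCj32627 and reCj09258 were higher by 3.97 (adjusted p = 0.00289) and 3.72 (adjusted p = 0.0116). The basic chitinase reCj15034 had base levels of 3.59, 3.49 and 4.18, against middle levels of 0.17, -0.03 and 0.01, a difference of 3.70 (adjusted p = 2.46e-05). At 1 dpi, where reCj30314 differed by 5.65, reCj08658 differed by 2.10 and was called (adjusted p = 0.0232), and the other 3 were not.

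In needles 44 of the 46 were tested against 0 hpe. At 3 wpi 18 were called lower and 2 higher, and at 6 wpi 16 lower and 5 higher, where 6.04% and 7.67% of all targets were called lower and 3.96% and 5.29% higher. The median of the 44 was -0.64 at 3 wpi and -0.65 at 6 wpi, beside 0.02 and 0.03 for all targets.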
